A study of Mus musculus with 2 samples.

Results

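Suffix models are transcript models that keep the 3′ part of a longer intron chain and lack 1 or more introns at its 5′ end, so that they appear to start late. They were studied in long-read RNA sequencing of gastrocnemius, the large calf muscle, from male B6CASTF1/J mice, which carry 1 set of chromosomes from C57BL/6J and 1 from CAST/EiJ, aged 2 months. The 2 libraries, replicate 1 and replicate 2, were each made from 2 µg of total RNA and are replicates of the same condition. There is thus no contrast between conditions, and no p-value was computed. The labels number the males differently and give both the same donor identifier, so the spread between the libraries may be partly technical. A suffix chain was kept when a suffix model with at least 1 intron was present in both libraries with the same gene, strand and exact intron chain and with 5 or more reads in each. There were 1216 such chains in 543 genes, of 9098 spliced chains that met the same read minimum in both libraries. A chain was called dominant when it held 50% or more of all reads of its gene in both libraries, which 47 chains in 47 genes did. Another 24 chains reached 50% in 1 library only, and the remaining 1145, in 481 genes, are called graded. The chains were chosen by the authors' suffix class and by their reads, and the classes by the share of the gene, so reads, shares and class sizes are given as descriptions.

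A spliced transcript begins at a promoter and runs through its exons in order, and a gene can have more than 1 promoter, in which case a later promoter gives a shorter transcript with its own first exon. In skeletal muscle such nested promoters are known for genes of the sarcomere and of energy metabolism, and the muscle phosphofructokinase gene Pfkm has long been known for alternative promoters. A long-read library can also hold molecules whose 5′ part was lost, by breakage of the RNA or because reverse transcription stopped before the cap. In an annotation by intron chain both kinds of molecule receive the same suffix class.

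The sequences of the late ends show what the models lack. The 9 stretches below are coding bases of the annotated parent transcript, the transcript whose intron chain ends with the chain of the model, for the most read suffix chain of each gene. The 9 genes were picked by hand. The shares of the gene held by these chains ran from 3.43% and 14.0% in Myh4 to 87.9% and 88.8% in Hrc. They are spliced transcript sequence from GENCODE M21 on GRCm38, so a stretch can span an intron. Lower case marks up to 45 bases that the model lacks, and capitals mark the first 45 bases that it keeps, with the model's 5′ end at the first capital.
Tecr-201, chr8:83574484-83594354, minus strand: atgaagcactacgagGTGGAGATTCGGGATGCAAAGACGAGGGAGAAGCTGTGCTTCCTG
Hrc-201, chr7:45337487-45337931, plus strand: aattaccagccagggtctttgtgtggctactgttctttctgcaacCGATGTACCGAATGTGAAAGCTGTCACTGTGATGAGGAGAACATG
Ndufa4-205, chr6:11905218-11906064, minus strand: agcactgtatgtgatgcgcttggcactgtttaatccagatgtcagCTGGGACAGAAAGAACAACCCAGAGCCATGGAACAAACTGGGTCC
Ndufs7-201, chr10:80255092-80255968, plus strand: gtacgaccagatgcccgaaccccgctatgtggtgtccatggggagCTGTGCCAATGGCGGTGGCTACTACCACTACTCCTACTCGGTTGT
Pink1-201, chr4:138318034-138320033, minus strand: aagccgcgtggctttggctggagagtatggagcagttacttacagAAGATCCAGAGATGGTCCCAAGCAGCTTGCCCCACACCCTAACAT
Atp5b-201, chr10:128088996-128089085, plus strand: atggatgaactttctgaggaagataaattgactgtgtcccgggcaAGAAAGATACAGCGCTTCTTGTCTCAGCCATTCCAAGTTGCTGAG
Myh4-202, chr11:67258952-67259127, plus strand: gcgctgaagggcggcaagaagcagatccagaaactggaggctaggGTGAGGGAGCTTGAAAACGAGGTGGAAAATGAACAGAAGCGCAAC
Ryr1-201, chr7:29020222-29024047, minus strand: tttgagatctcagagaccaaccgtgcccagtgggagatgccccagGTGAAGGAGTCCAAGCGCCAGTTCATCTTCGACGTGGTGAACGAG
Actn2-201, chr13:12288613-12290718, minus strand: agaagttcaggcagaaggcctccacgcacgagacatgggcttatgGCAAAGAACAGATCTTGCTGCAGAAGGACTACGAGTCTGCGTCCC
In Tecr the lower-case run is the whole missing coding part, 15 of 924 coding bases, and it begins with the start codon. In Hrc 2019 of 2214 coding bases lay before the end, in Ndufs7 488 of 672, in Atp5b 1371 of 1587 and in Myh4 5466 of 5817. In Ryr1 the end lay at exon 91 of 106 and 12630 of 15099 coding bases were missing. Of the 9 ends, that of Atp5b lies within exon 9 of its parent, and the base before and after it come from the same exon.

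For 11 of the 71 chains that reached 50% in at least 1 library, a RefSeq transcript of the same gene begins in the last missing intron or in the first exon that the chain keeps, so RefSeq lists a start there, although in Apbb2 and Kcnab1 far from the end of the model. The 100 bases before that start are shown for 4 genes. In these genes it lay within 100 nt of the end in both libraries, and no more than 30 of the bases overlap an annotated exon on the strand. In Pfkm the last 26 and 87 of the printed bases lie inside the models of replicate 1 and replicate 2, which begin before the RefSeq start. The bases come from RefSeq on GRCm38.p6, and capitals mark matches to the 4 motifs searched.
Pfkm, chr15:98111960-98112059, plus strand: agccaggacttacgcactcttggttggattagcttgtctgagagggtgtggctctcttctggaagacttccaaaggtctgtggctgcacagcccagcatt
Banf1, chr19:5366364-5366463, minus strand: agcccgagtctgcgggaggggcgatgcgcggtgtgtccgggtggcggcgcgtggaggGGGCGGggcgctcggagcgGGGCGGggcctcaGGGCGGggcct
Clcn4, chr7:7298837-7298936, minus strand: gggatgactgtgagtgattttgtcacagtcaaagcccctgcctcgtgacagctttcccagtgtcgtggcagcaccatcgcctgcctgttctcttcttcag
Asb4, chr6:5390310-5390409, plus strand: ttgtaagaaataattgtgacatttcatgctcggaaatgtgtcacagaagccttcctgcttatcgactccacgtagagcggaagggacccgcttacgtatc
The motifs were TATAAA (the TATA box), CCAAT (the CCAAT box), GGGCGG (a GC box) and CANNTG (the E-box), searched on both strands, and matches were allowed to overlap. GGGCGG was in 3 of the 11 windows (those of Banf1, Ethe1 and Apbb2), CANNTG in 3 (Psmc2, Ctsa and Kcnab1), CCAAT in 1 (Apbb2) and TATAAA in 0. Over all 32851 RefSeq starts in the table, the same 100 bases held GGGCGG in 24.7%, CANNTG in 34.4%, CCAAT in 18.9% and TATAAA in 5.56%. The Pfkm, Clcn4 and Asb4 windows held no match. The Clcn4 window ends in a run of t and c followed by ag, letters that introns can also end in. Whether transcription begins at the listed starts was not tested. The RefSeq start lay 281 nt after both model ends in Ethe1, and 77 and 1464 nt after them in Psmc2. The motif matches of these 2 genes thus lie inside the models and not before their ends.

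The libraries held 1132759 and 1449423 endogenous reads, spike-ins left out. All 8 muscle markers checked were present. Their levels ran from 1209 CPM (Myh1) to 71396 CPM (Ckm) in replicate 1 and from 1444 CPM (Pvalb) to 62141 CPM (Ckm) in replicate 2, where CPM are reads scaled to the endogenous total. Suffix models of any read number were 14748 in replicate 1 and 17042 in replicate 2, with 77148 and 100134 reads, and 66.1% and 63.2% of the models rested on 1 read. The 1216 chains in both libraries took 55755 and 71858 reads, which was 4.94% ± 0.0252 of endogenous reads (SD, n = 2) and 72.0% ± 0.359 of suffix reads. At the read minimum, 179 chains had exactly 5 reads in at least 1 library, and a further 279 chains just missed it with 4 reads in the lower library. The dominant chains took 7895 and 12048 reads, and 5 of them held 77.5% and 82.8% of these. The chains were almost all from protein-coding genes, 1207 of 1216.

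The 5′ ends of most models coincided with annotated positions, and whether they mark the ends of single reads is not given in the sources used here. In replicate 1, 1060 ends (87.2%) and in replicate 2, 1034 (85.0%) lay exactly on the start of an annotated transcript or on the 5′ edge of an annotated exon of the gene. Ends on an annotated start numbered 288 and 284, and ends on an exon edge 772 and 750. Ends inside an annotated exon numbered 129 and 151, and ends outside annotated exons 27 and 31. The end was identical in both libraries for 972 chains (79.9%) and within 50 nt for 1060 (87.2%). Where both ends lay on an annotated start or edge, 918 of 969 were identical, and where neither did, 54 of 91 were identical and 64 were within 50 nt. How much of this identity comes with the placement on annotated positions was not tested. For comparison, ends were identical in 67.8% of 793 chains that join annotated splice sites in an unannotated way. They were identical in 70.3% of 451 chains with an unannotated splice site and in 77.1% of 83 other incomplete matches. Annotated chains, whose ends all lay on an annotated start or edge, had identical ends in 100%. In the first 3 of these classes 97.6%, 77.8% and 95.2% of ends in replicate 1 lay on an annotated start or edge.

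Dominant and graded chains differed in how much they lacked. An annotated parent was found for all 47 dominant and for 1074 graded chains, while no annotated transcript of the gene ends with the other 71 graded chains. Dominant chains lacked a median of 1 intron and 319 nt, and 26 of 47 (55.3%) lacked exactly 1 intron. Graded chains lacked a median of 5 introns and 741.5 nt, and 235 (21.9%) lacked exactly 1. In 26 of 47 dominant chains the annotated parents had 0 reads in both libraries, against 96 of 1074 graded chains. The whole coding sequence of the parent was kept in 19 dominant chains (40.4%) and in 139 graded chains (12.1% of 1145), and the start codon was missing in 25 and 918. These differences were not tested, since the classes were cut on the reads of the same libraries and chains of 1 gene share their source.

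The place of the 5′ end relative to the missing intron next to the kept part gave 3 kinds of suffix chain. In 895 of the 1145 chains with a parent (78.2%) the ends lay in the first kept exon, and this is the late end in the plain sense. In 81 chains (7.07%) they lay inside the missing intron. In 94 chains (8.21%) the first exon of the model reached across the whole missing intron into the exon before it. As given, such a model holds the unspliced intron and is not late by position. Those introns were short, with a median of 145 nt, against 883 nt for the chains that end in the first kept exon. Whether single reads of the 94 chains hold the intron was not tested. In the other 75 chains the place differed between the libraries. Among dominant chains 31 were of the first kind, 7 ended in the intron, 7 reached across it and 2 differed.

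Annotated starts in the missing intron or the first kept exon were listed for more dominant than graded chains as a share. GENCODE had such a start for 18 of 47 dominant chains (38.3%), 9 of 24 chains dominant in 1 library (37.5%) and 230 of 1074 graded chains (21.4%). RefSeq had one for 8 dominant (17.0%), 3 (12.5%) and 37 graded chains (3.45%). The classes also differ in the number of missing introns, and they were not compared at equal numbers or at equal length of the searched region. The difference was thus not tested. Of the 543 genes, 419 matched the RefSeq start table by symbol, so the RefSeq counts are lower limits. Ends within 50 nt of a GENCODE start were found for 18 and 19 dominant chains in the respective libraries and for 271 and 263 graded ones.

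**Figure D1:**
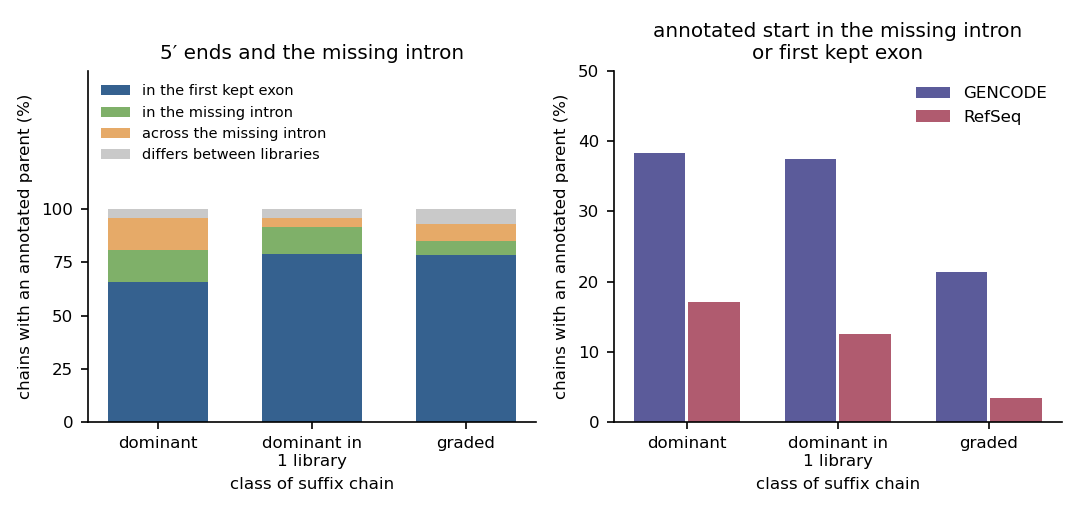
Left, share of suffix chains with an annotated parent (%) by the place of their 5′ ends relative to the missing intron, stacked to 100% for 47 dominant chains, 24 dominant in 1 library and 1074 graded. Right, share of the same chains with an annotated GENCODE or RefSeq start in the missing intron or first kept exon, which was 38.3% and 17.0% for dominant and 21.4% and 3.45% for graded chains. The classes were not compared at equal numbers of missing introns.

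Pfkm, which encodes the muscle form of phosphofructokinase, the enzyme that commits glucose to glycolysis, had the most read dominant chain. It held 2831 of 3717 Pfkm reads in replicate 1, or 76.2% (Wilson interval 74.8 to 77.5), and 3402 of 4431 in replicate 2, or 76.8% (75.5 to 78.0). The intervals overlap. The chain lacks only the first of the 22 introns of its parent, which had 453 and 523 reads, and it keeps the whole coding sequence. Its 5′ ends lay in the first intron, at chr15:98112034 and chr15:98111973, outside annotated exons and 26 and 87 nt before the RefSeq start whose upstream bases are printed above. The other 18 Pfkm chains held 7.24% and 6.88% of the reads of the gene together.

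Other dominant chains also kept the whole coding sequence and lacked only upstream exons. Ndufa13, a subunit of respiratory complex I, had 980 of 1003 reads (97.7%) and 1149 of 1175 (97.8%) in a chain that lacks the first intron and 678 nt of an annotated parent with 0 reads in both libraries. Atp5j, the coupling factor 6 of mitochondrial ATP synthase, had 803 of 1038 (77.4%) and 944 of 1269 reads (74.4%) in such a chain, with 64 and 78 reads on the parent. In Atp5j the end lay on an annotated start, and a RefSeq start lay 144 nt before it. Psmc2, an ATPase subunit of the proteasome, had 91.1% and 92.8% of 135 and 138 reads in its chain, but the ends in the 2 libraries lay 1387 nt apart and in replicate 2 the first exon reached across the missing intron. Shares in the 2 libraries lay within each other's intervals for Ndufa13 and Psmc2, and the intervals of Atp5j overlapped.

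Smaller dominant chains of this kind came from genes of varied function. Ethe1, a mitochondrial sulfur dioxygenase, had 53 of 55 and 74 of 78 reads in a chain whose annotated parent had 0 reads. Tox4, a nuclear protein with a DNA-binding box, had 52 of 61 and 64 of 77 reads. Serping1, the C1 inhibitor of the complement cascade, had 67 of 77 and 41 of 48. Clcn4, an endosomal chloride and proton exchanger, had 42 of 64 and 41 of 68, and its end lay 65 nt after a RefSeq start. Bud23, a methyltransferase of ribosomal RNA, had 33 of 38 and 45 of 49. Asb4, a substrate adaptor of a ubiquitin ligase whose upstream bases are printed above, had 18 of 20 and 16 of 19. In these 6 genes the chain lacked 1 intron and held the same end in both libraries.

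In other dominant chains the missing part included the start codon. Hrc, the histidine-rich calcium-binding protein of the sarcoplasmic reticulum, had 941 of 1070 reads (87.9%) in replicate 1 and 2292 of 2582 (88.8%) in replicate 2 in a chain that lacks 2 of 5 introns and 2156 nt and keeps 8.81% of the coding sequence. The annotated Hrc transcript had 63 and 140 reads. Both libraries therefore showed nearly the same Hrc share, although the gene had more reads in replicate 2. Cmya5, a large protein of the Z-disc and costamere also called myospryn, had 174 of 300 (58.0%) and 236 of 375 reads (62.9%) in a chain that ends inside its giant exon, 475 nt apart in the 2 libraries, and lacks 8663 nt. Naca, a ribosome-associated chaperone subunit that has a muscle form with a very long extra exon, had 67 of 86 and 90 of 116 reads in a chain ending inside an exon of the parent Naca-202, and the ends lay 1114 nt apart. Fabp4, the fatty acid binding protein of adipocytes, had 30 of 50 and 61 of 103 reads in a chain with 37.9% of the coding sequence. In bulk tissue, fewer cells of a type and less RNA per cell cannot be told apart, and this applies to the gene totals of Fabp4.

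A further group lacked only a small part of the parent's coding sequence. Tecr, the reductase of the last step of very-long-chain fatty acid elongation, had 324 of 523 reads (62.0%, Wilson interval 57.7 to 66.0) and 246 of 466 (52.8%, 48.3 to 57.3). Those intervals do not overlap, and the lower one spans 50%. Its chain lacks the first exon, 138 nt, and starts at exon 2 after an intron of 19811 nt. Cdh13, a cadherin anchored to the membrane by a lipid, had 101 of 126 and 97 of 132 reads, lacked the first exon and 45 coding bases, and its parent had 0 reads. Ctsa, a lysosomal carboxypeptidase, had 71 of 92 and 57 of 88 reads and lacked 10 coding bases, with its end 34 nt after a RefSeq start. Fdft1, squalene synthase of cholesterol synthesis, had 49 of 54 and 72 of 79 reads and lacked 99 coding bases. In Ctsa and Fdft1 the end lay on an annotated start of the gene in both libraries, in Fdft1 inside the missing intron. The parent had 1 and 0 reads in Ctsa and 0 in both libraries in Fdft1. Ssbp1, the single-stranded DNA binding protein of mitochondria, lacked more: its chain with 59 of 90 and 91 of 159 reads kept 29.3% of the coding sequence.

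The next ATG in the parent's reading frame lay far into the sequence for several of these. It came after 131 of 308 codons in Tecr, after 687 of 738 in Hrc, after 105 of 714 in Cdh13 and after 18 of 492 in Ctsa. Of 24 dominant chains without the start codon whose parent frame begins with ATG, 21 had a later in-frame ATG in the parent sequence. The frame after this ATG was a median of 29.7% of the parent's, from 1.75% to 96.3%. For graded chains the count was 860 of 902, with a median of 53.3%. These values read letters of the parent only, and translation was not measured. Bases that a model holds outside its parent, as in chains that end in the missing intron, were not searched.

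Of the 7 dominant chains that reach across the missing intron, 2 were among the leaders. Tnnt1, the troponin T of slow fibres, had 561 of 664 reads (84.5%) and 2183 of 2418 (90.3%). Counted against different annotated Tnnt1 transcripts, all with 0 reads, its chain lacks from 1 to 11 introns. Against the nearest, its model only retains an intron of 75 nt. Prkab2, the beta 2 subunit of the energy sensor AMPK, had 192 of 318 (60.4%) and 275 of 402 reads (68.4%). The first exon of its model holds an intron of 219 nt that the annotated parent, with 19 and 33 reads, removes. In Tnnt1 and Prkab2 the model's end lay on an annotated start in both libraries. The others were Gm20427, Gm49027, Tagap1, S100a13 and Gm38394, with 6 to 50 reads in a library. In Gm20427, Gm49027, Gm38394 and in Gm20390 the chain is also held by the annotation of an overlapping gene (H2-Ke6, Diablo, Zc3h11a and Nme2), so the reads may belong to either gene.

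**Figure D2:**
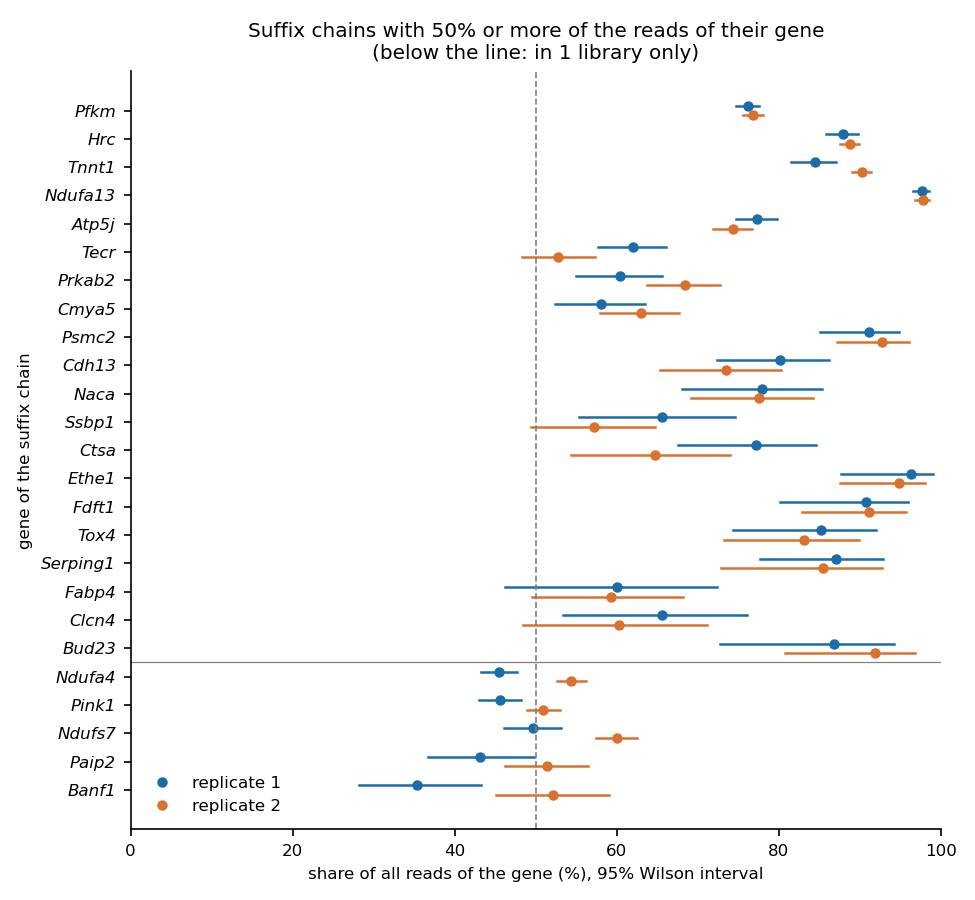
Share of all reads of the gene (%) held by the suffix chain, with 95% Wilson intervals that cover counting error only, for the 20 dominant chains with the most reads and the 5 leading chains that reached 50% (dashed line) in 1 library only. Ndufa13 was highest, at 97.7% and 97.8%, and the intervals of Tnnt1, Tecr, Ndufa4, Pink1, Ndufs7 and Banf1 do not overlap between the libraries.

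The 5 most read of the 24 chains at 50% in 1 library only were those of Ndufa4, Pink1, Ndufs7, Paip2 and Banf1. Ndufa4, a small protein of cytochrome c oxidase, had 869 of 1910 reads (45.5%, Wilson interval 43.3 to 47.7) and 1561 of 2870 (54.4%, 52.6 to 56.2). Ndufs7, a subunit of complex I, had 372 of 750 (49.6%, 46.0 to 53.2) and 845 of 1408 (interval 57.4 to 62.5). Pink1, a kinase that marks damaged mitochondria, had 663 of 1455 (45.6%) and 1150 of 2257 (51.0%). Banf1, a chromatin protein of the nuclear envelope, had 53 of 150 (35.3%) and 100 of 192 (52.1%), with its end on the RefSeq start. Paip2, a regulator of poly(A)-binding protein, had 94 of 218 (43.1%) and 187 of 364 (51.4%). In these 5 genes replicate 2 was the higher, and the intervals overlapped between the libraries in Paip2 only.

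By mean share, the chains nearest above 50% were those of Plcg1 (51.2%) and Ttyh2 (51.3%), and the nearest below were those of Ndufa4 (49.9%) and Mrps22 (49.1%). Plcg1, Ttyh2 and Mrps22 rest on 6 to 21 reads per library. Of the 47 dominant chains, 18 belong to genes with under 20 reads in at least 1 library. Among the 7882 other spliced chains, 4574 (58.0%) held 50% or more of their gene in both libraries, against 47 of the 1216 suffix chains (3.87%); the threshold is part of the rule, so nothing is read from this.

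**Figure D3:**
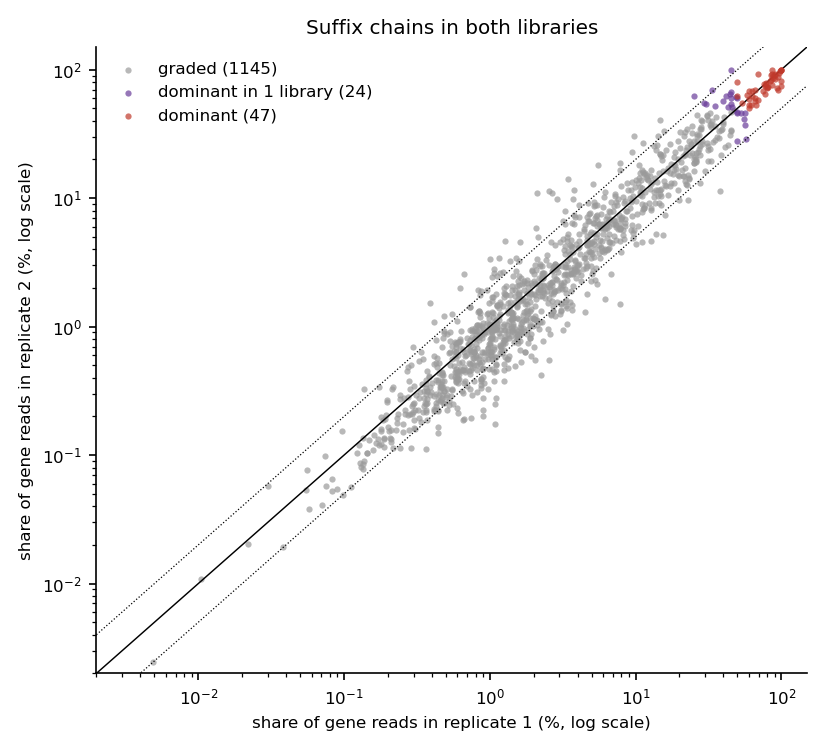
Share of gene reads (%) in replicate 1 (x axis, log scale) and replicate 2 (y axis, log scale) for the 1216 suffix chains, with the line of equality and dotted lines at 2-fold. Dominant chains lie at the upper right by their definition, and graded chains range from 0.0049% to 47.1% in replicate 1.

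Some genes had ladders, in which a gene has a series of suffix chains that lack different numbers of introns. Most genes had 1 suffix chain (378) or 2 (72), and 93 genes had 3 or more. These 93 genes held 694 chains (57.1%) and 74.3% and 68.7% of the chains' reads, and 21 genes had 10 or more. The counts take chains of all classes, so the dominant chains of Pfkm, Tecr and Cmya5 are among them. In 16 of these genes every possible suffix of an annotated transcript with 4 or more introns was found in both libraries. They were Myh4, Atp2a1, Eno3, Tpm1, Aldoa, Ankrd23, Ckm, Ldha, Acta1, Ak1, Neurl1a, Tmem38a, Tnnc2, Atp5b, Tmem52 and Tnni2.

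Myh4, which encodes the motor protein of the fastest fibres, type IIB, had the longest complete ladder, with 1 chain for every number of missing introns from 1 to 36 out of 37 and 3 more chains without an annotated parent. Its chains held 8025 of 16494 reads (48.7%) and 11599 of 25951 (44.7%), while annotated Myh4 transcripts held 14.5% and 19.9%. The rung lacking 35 introns had 565 reads (3.43%) in replicate 1 and 3630 (14.0%) in replicate 2, a log2 difference of 2.03. The rung lacking 2 introns had 265 (1.61%) and 1173 reads (4.52%), and the rung lacking 24 went the other way with 810 (4.91%) and 592 (2.28%). Without the rung lacking 35 introns, the other 38 chains held 45.2% and 30.7%, and 6 of them were higher in replicate 2. Myh1, a near relative in sequence to which reads of such 3′ parts could also be given, had 1209 and 3699 CPM, and Myh4 had 14561 and 17904 CPM. The part of these levels in the Myh4 result was not tested.

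Ryr1, the calcium release channel of the sarcoplasmic reticulum and one of the longest muscle transcripts, had a ladder that covers only the 3′ end. Of its 18 chains, the 17 with an annotated parent lacked 83 to 103 of 105 introns, and all 18 held 88.9% and 77.4% of 949 and 1135 reads. The rung that ends at exon 91, whose sequence is printed above, had 343 (36.1%) and 342 reads (30.1%), and the next rung had 206 (21.7%) and 193 (17.0%). Annotated Ryr1 transcripts held 0.105% and 0% of the reads. Ttn, the giant sarcomeric spring titin, showed the same position at the 3′ end, with a chain lacking 186 of 191 introns at 76 (20.2%) and 128 reads (32.8%) and one lacking 188 at 22 (5.85%) and 23 (5.90%). The larger Ttn chain reaches across an intron of 156 nt.

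The myosin heavy chain genes of the other fast fibres had ladders as well. Myh1, of type IIX fibres, had 28 chains with 387 of 1370 (28.2%) and 1336 of 5362 reads (24.9%), led by the rung lacking 2 introns with 56 (4.09%) and 475 (8.86%). Myh2, of type IIA fibres, had 23 chains with 228 of 501 (45.5%) and 807 of 2001 (40.3%), led by the same rung with 16 (3.19%) and 133 (6.65%). In Myh1, Myh2 and Myh4 the rung lacking 2 introns had the higher share in replicate 2, and it keeps the whole coding sequence in Myh1 and Myh2.

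Other ladders ran over much of the transcript. Pygm, the muscle glycogen phosphorylase, had 16 chains with 34.5% and 33.7% of 4027 and 3406 reads. Its rungs lacking 2 and 4 introns held 5.91% and 5.59% in replicate 1 and 6.28% each in replicate 2, and the rung lacking 16 held 2.88% and 2.91%. The Pygm rungs were thus alike in both libraries, with 7 of 16 higher in replicate 2. Aldoa, a glycolytic aldolase, had 7 chains with 6.18% and 6.12% of its reads. Mybpc2, the fast myosin-binding protein C, had 24 chains with 17.6% and 13.0%.

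Abundant genes had complete but low ladders. Atp2a1, the fast-fibre calcium pump, had 21 chains with 2.91% and 1.99% of 163251 and 203279 reads, and no annotated Atp2a1 transcript had reads, so its chains were set against an annotated parent that was not itself seen. The leading rung of Atp2a1, lacking 7 introns, had 830 and 664 reads. Ckm, the muscle creatine kinase, had 6 chains with 4.79% and 3.28% of its reads, led by the one that keeps only the last intron, with 2546 (3.15%) and 1772 (1.97%). Acta1, the skeletal muscle actin, had 5 chains with 3.37% and 2.71%, led by those lacking 2 introns (764 and 730 reads) and 1 intron (600 and 601). In Ckm and Acta1 every chain had the lower share in replicate 2, and in Atp2a1 20 of 21 did.

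**Figure D4:**
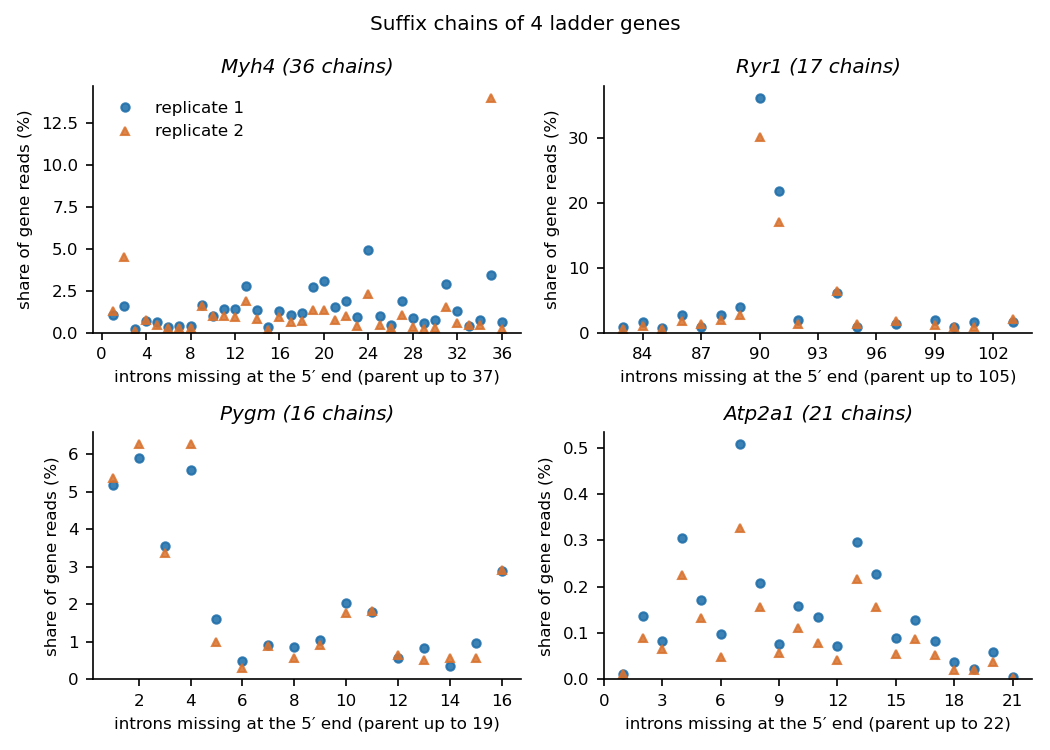
Share of gene reads (%) by the number of introns missing at the 5′ end, for the suffix chains of Myh4, Ryr1, Pygm and Atp2a1 that have an annotated parent (circles, replicate 1; triangles, replicate 2). Most rungs are low, and the Myh4 rung lacking 35 introns differs most between the libraries, at 3.43% and 14.0%.

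Some graded chains were large single rungs. Atp5b, the catalytic beta subunit of ATP synthase, had 977 of 3465 (28.2%) and 2473 of 6129 reads (40.3%) in the chain that keeps only the last intron, and its end lay on an annotated start inside exon 9, as printed above. Actn2, an alpha-actinin of the Z-disc, had 233 of 1360 (17.1%) and 961 of 3642 (26.4%) in a chain lacking 11 of 20 introns. Atp5b and Actn2 were both higher in replicate 2.

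Tnni2, the fast troponin I, had 1237 of 6166 (20.1%) and 1048 of 4270 reads (24.5%) in a chain without an annotated parent. The 5′ end of this chain lay on an annotated start. Myl1, a myosin light chain gene, had 788 of 14931 (5.28%) and 1077 of 12104 (8.90%) in a chain lacking 3 of 6 introns with its end inside an annotated exon, at chr1:66926622 in both libraries.

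The share of suffix reads grew with transcript length. Among 2127 genes with 50 or more reads in each library, the median suffix share of gene reads was 2.98% and 2.54%. It was 0.746% and 0.833% where the most read annotated transcript was under 1000 nt and 8.89% and 8.29% where it was 6000 nt or more. By introns, it was 0.220% and 0.0587% with 1 to 3 introns and 28.9% and 22.2% in the 32 genes with 32 or more. In the 1145 chains with a parent, the kept length rose less than the parent. For parents under 1000 nt the models had medians of 567 and 569 nt and the missing part 226 nt, and for parents of 6000 nt or more the models had 3521 and 3631 nt and the missing part 3012 nt. Genes are not independent replicates, and these values describe the 2 libraries.

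**Figure D5:**
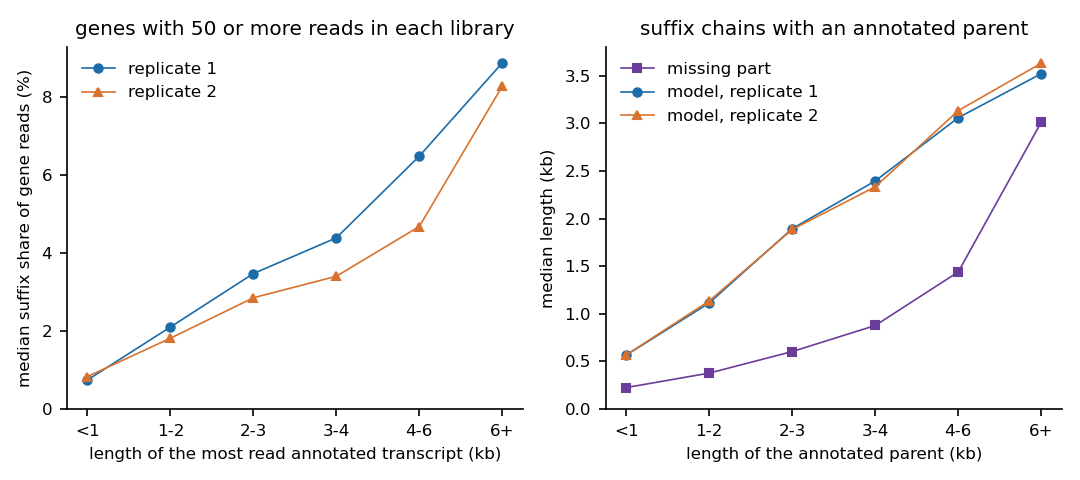
Left, median suffix share of gene reads (%) by the length of the most read annotated transcript (kb), rising from 0.746% and 0.833% to 8.89% and 8.29% in replicates 1 and 2. Right, median length (kb) of the models and of the missing part of the suffix chains by the length of the annotated parent.

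A list of 24 genes, drawn up as genes with nested promoters in muscle or other tissues, held 43 chains in 11 genes. Pfkm was not placed on it. Of the 24 genes, 19 had 20 or more reads in each library. The median log2 difference of the 43 chains between the libraries was 0.03. None of the 43 was dominant, where 3.87% of all 1216 chains were. Trdn, which encodes triadin of the calcium release unit, had 189 of 841 (22.5%) and 481 of 1390 reads (34.6%) in a chain without an annotated parent. Tpm1, a tropomyosin with an internal promoter, had a complete ladder of 8 chains. The leading Tpm1 chain, lacking 4 of 9 introns and ending on an annotated start, had 146 (0.512%) and 216 reads (0.876%). Ndrg2, a stress-responsive gene, had 60 (2.28%) and 93 reads (2.54%) in a chain that ends on an annotated start in the missing first intron. Myl1 also had a chain of 316 and 258 reads that reaches across an intron of 733 nt from the annotated start. Rtn2, Speg, Fhl1, Ank1, Gnas and Pde4d had 1 to 3 chains each.

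Among other lists of muscle genes, chosen with earlier results of these data known, that of sarcomere genes was the longest and had the most chains. For no list was the number of chains set beside that of other genes of like length and depth. On the sarcomere list, 26 of 32 genes had 250 chains, with a median log2 difference of -0.44 and 1 dominant chain, that of Tnnt1. Over all 1216 chains the median was -0.20. Chains of 1 gene share its total and are not independent, and Myh4 alone had 39 chains, so a list median can rest on few genes. Calcium and excitation genes had 77 chains in 13 of 20 genes (median -0.47; Hrc dominant), and glycolysis and glycogen genes 87 in 17 of 21 (median -0.17; Pfkm dominant). Oxidative metabolism genes had 66 chains in 19 of 28 (median -0.28), and the dominant chains of Ndufa13 and Atp5j come from genes of respiration that are not on this list. After Atp5b the listed ones were led by Acadm, a fatty acid oxidation enzyme, with 33 (8.73%) and 112 reads (13.2%). Translation factors and ribosomal proteins had 29 chains in 9 of 15 genes (median -0.02), led by Eif4g2 with 41 (10.7%) and 88 reads (10.5%) and by Eef2 with 52 (8.15%) and 35 (5.67%). Proteolysis and chaperone genes had 14 chains in 5 of 20 (median 0.17), led by Hspa8 with 39 and 63 reads. Membrane and cytoskeleton linkers had 10 in 6 of 20 (median -0.08; Cmya5 dominant), with Plec, the linker plectin, next at 24 (10.8%) and 59 reads (13.9%).

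Shares of the gene were over 2-fold apart between the libraries for 163 of the 1216 chains. Of these, 50 (4.11%) were higher in replicate 2 and 113 (9.29%) in replicate 1. Scaled to CPM in place of the gene total, the balance turned, with 117 (9.62%) higher in replicate 2 and 105 (8.63%) in replicate 1. Among 7882 other spliced chains with the same read minimum, 79 (1.00%) were higher in replicate 2 and 132 (1.67%) in replicate 1. All but 3 of the 163 suffix chains were graded, and none was dominant; the other chains include many with large shares of their gene, which can differ less. With 20 or more reads in each library, 24 of 327 suffix chains were over 2-fold apart, 8 and 16 in the respective directions. The other spliced chains were not counted by CPM or at this minimum. Whether the turned balance is particular to suffix chains was thus not tested.

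Among chains with 50 or more summed reads, the most apart toward replicate 2 was that of Sh3bgr, a small protein abundant in muscle, with 11 of 519 (2.12%) and 64 of 582 reads (11.0%), a log2 difference of 2.38. It was followed by the Myh4 rung lacking 35 introns. Tnnc2, the fast troponin C, came next with 127 (0.388%) and 472 reads (1.52%) and 1.97, and Tnnt3, the fast troponin T, with 17 (0.670%) and 64 (2.58%) and 1.95. Ryr1 followed with 12 (1.26%) and 53 reads (4.67%) and 1.88 in a chain without an annotated parent. Toward replicate 1 the 5 most apart were all Myh4 rungs, lacking 36, 30, 29, 23 and 28 introns, with log2 differences from -1.52 to -1.31. These 5 rungs also had fewer reads in replicate 2, 55 to 94 against 98 to 151 in replicate 1. All Myh4 rungs share the gene total, of which the rung lacking 35 introns took 3.43% and 14.0%. The other 38 Myh4 chains together held 45.2% and 30.7%. How far the shared total bears on the differences of these rungs was not tested.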

How the data were processed

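Long-read RNA of 2 gastrocnemius libraries was analysed. TALON made the models, per the file headers, and mm10 with GENCODE M21 was the reference, per the notes beside each table. The values are raw read counts per model, deposited for each library separately. No aligner or tool version is given in the sources used here. The class of each model (suffix or other) is the authors'. Here, models were matched between libraries by gene, strand and exact intron chain with Python 3.11.15, and shares were taken of all reads of the gene, genomic reads included. The parent was the annotated transcript of the gene with the most reads, then the fewest missing introns. Where parents had 0 reads this favours the nearest one. Wilson intervals (95%) cover counting error only, since the reads carry no molecular identifiers. Reads of near-identical genes may be given to either, and reads of both parental strains were placed on 1 reference. The functions were tested on simulated models. Named were the 20 leading dominant chains, 5 dominant in 1 library, the 2 nearest each side of 50%, the 10 leading ladder genes and graded chains, the 5 most apart in each direction, nested promoter genes and up to 3 leaders of each list. Ryr1, Ttn, Myh1, Myh2, Mybpc2, Actn2, Asb4 and the remaining chains across an intron or shared with another gene were added after their values were seen. A few items that the rule would name are not reported here. The members and gene lists were chosen with earlier results of these data known.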

Additional observations from a re-analysis of the deposited data

How the results depend on the processing

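The number of suffix chains was 1991 with a minimum of 3 reads and 620 with 10, and 1220 when each splice site could differ by up to 10 nt. The number of dominant chains, 47, was 29 in genes with 20 or more reads in each library and 66 and 36 at thresholds of 40% and 60%. Taken from 1 library alone it was 68 to 87. The share of endogenous reads, 4.94%, was 4.52% with a minimum of 10 reads and 5.22% of the reads of annotated genes without genomic reads, and without the leading Myh4 chain, left out after seeing the data, it was 4.79%. The share of suffix reads, 72.0%, was 65.9% with the minimum of 10. The share of matching 5′ ends, 87.2%, was 89.0% within 100 nt and 70.3% for chains with neither end on an annotated start or edge, a setting chosen after seeing the data. With the parent that gives the shortest missing part, the medians were 4 introns and 585 nt, and with the longest 780 nt. Chains over 2-fold apart were 24 with 20 reads in each library, 222 by CPM, of which 117 were higher in replicate 2 and 105 in replicate 1, and 150 without Myh4, an alternative chosen after seeing the data. Leaving out either library gave 4.92% to 4.96% of endogenous reads, 71.8% to 72.3% of suffix reads and 23.8% to 24.3% of ends near an annotated start. No paired analysis was possible because there is 1 group and no test.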

Other observations

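Chains also present at lower depth were not followed: 6885 suffix chains occurred in both libraries at any read number, and 66 and 160 chains with 5 or more reads in replicate 1 and replicate 2 had none in the other library.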
